A study of Mus musculus with 9 samples.

Results

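Macrophages and other leukocytes were followed through 10 of their genes in the developing mouse temporomandibular joint, the hinge between the lower jaw and the skull. The members were Csf1r, Mrc1, Cd68, Fcgr1, C1qa, C1qb, Ptprc, Tyrobp, S100a8 and S100a9, chosen by symbol. The rule uses no measured value, but earlier results of these data were known when the members were chosen. They are 10 of the 18193 genes measured, and all 16 probe sets that the platform annotation gives to them were read, of 45037 that are no array controls. The series holds 9 Affymetrix arrays from E16.5 embryos (16.5 days after the plug). Condyle (the lower jaw's side of the joint), fossa (its socket on the skull) and whole body had 3 arrays each. By the labels, the treatment entry of all 9 samples is laser capture of frozen tissue, and all share 1 RNA isolation kit; no genetic change or drug is named for any group. Strain, sex and which embryo gave each sample are not given in the sources used here. The design text calls the samples biological triplicates without naming the embryos, and every p-value below reflects only how far these samples spread, which may be technical.

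Tissue macrophages live in nearly every embryonic organ, where they clear dying cells, and they depend on the receptor encoded by Csf1r. Neutrophils and their precursors fill their cytoplasm with the calcium-binding proteins S100a8 and S100a9, which pair into calprotectin, and before birth they are made mainly in the fetal liver. Macrophage precursors also fuse into osteoclasts, the bone-resorbing cells of the growing skeleton, so that Csf1r and Tyrobp are read in both cell types. PU.1, a transcription factor of myeloid cells, and the C/EBP factors act on many of these genes.

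The promoters of S100a8 and S100a9 are shown because these genes gave the largest differences of the 10 and lie next to each other, with 0 gene models between them. Each window runs from 250 bases before to 50 bases after the start of the gene, from RefSeq on GRCm38.p6, and is printed 5′ to 3′ on the gene's strand. S100a8 is at chr3:90668821-90669120 on the plus strand and S100a9 at chr3:90695672-90695971 on the minus strand. Capitals mark the PU.1 core GAGGAAG (or its reverse complement CTTCCTC), the C/EBP form TTGCNNAA on either strand, and the TATA form TATAAA on the printed strand.
S100a8: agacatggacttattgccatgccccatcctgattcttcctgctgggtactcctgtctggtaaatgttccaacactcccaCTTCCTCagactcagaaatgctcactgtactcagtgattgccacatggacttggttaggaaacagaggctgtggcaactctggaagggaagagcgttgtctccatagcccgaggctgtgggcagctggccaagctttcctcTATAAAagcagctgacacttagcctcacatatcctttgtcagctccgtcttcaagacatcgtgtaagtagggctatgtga
S100a9: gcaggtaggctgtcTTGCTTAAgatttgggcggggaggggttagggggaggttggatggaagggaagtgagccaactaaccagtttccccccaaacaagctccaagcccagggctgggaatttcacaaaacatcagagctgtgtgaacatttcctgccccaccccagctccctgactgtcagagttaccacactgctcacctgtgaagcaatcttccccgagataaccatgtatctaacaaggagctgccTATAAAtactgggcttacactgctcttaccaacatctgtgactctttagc
The S100a8 window held 1 PU.1 core, at bases 80 to 86, and the TATA form at bases 221 to 226. The S100a9 window held 1 C/EBP form, at bases 15 to 22, and the TATA form at bases 251 to 256, at the start itself. Among 32851 promoter windows of this length, 13.6% held the PU.1 core, 10.8% the C/EBP form and 8.32% the TATA form, and 96% held GGAA, the shorter core that lies within the PU.1 letters, which is left in lower case. TATAAA was searched after these sequences had been seen. Of the 10 members 7 had an entry in the promoter table, with 2 for Ptprc. Besides S100a8, the PU.1 core was found in the windows of Mrc1 (2 matches) and Fcgr1 (1 match), and besides S100a9 the C/EBP form was found in that of Cd68. These matches describe letters, not binding.

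Levels are log2 intensities, and since probe sets differ in brightness they are compared between arrays for 1 gene, never between genes. A probe set was taken as above background on an array where it exceeded the brightest of 27 bacterial control probe sets, a limit of 2.87 to 3.52 depending on the array. Between 45.4% and 46.9% of probe sets lay above it on the condyle arrays, 30.3% to 43.8% on the fossa arrays and 37.4% to 45.9% on the whole body arrays, lowest on fossa array 1. The mean of the 18S ribosomal control probe sets was 13.2 to 13.5 in whole body and 5.86 to 9.63 on the joint arrays. The 3′ minus 5′ log2 difference of the Gapdh control probe sets, a sign of RNA length, averaged 4.66 on the fossa arrays, 5.94 on those of the condyle and 5.85 on those of the whole body. The part of these in the members' differences was not tested. The tissue labels were checked with 10 cartilage genes, and 8 of them were higher and 0 lower than whole body in condyle, and the same number in fossa. All 9 measured liver genes were lower in both joint tissues than in whole body, and of 8 red cell genes 6 were lower in condyle and 7 in fossa. Over all genes the median log2 difference was -0.03 for condyle against whole body, -0.11 for fossa against whole body and 0.21 for condyle against fossa.

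Condyle array 1 stood apart for these genes. All 10 members were highest of the condyle group on it, as were 39.5% of all genes. There 9 of 10 lay more than 1 log2 unit above the mean of condyle arrays 2 and 3, against 2.90% of all genes, and 7 lay more than 2 above it, against 0.495%. The median excess of the members was 2.11, with a range of 0.01 to 3.66, while the median over all genes was 0.01. On each other array of the series at most 1 member lay over 1 unit above the mean of its 2 partners. The members' differences from whole body are therefore given below with and without condyle array 1, as are the counts of the leukocyte pathway lists against whole body, and the plot of differences shows every comparison of the members both ways.

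**Figure D1:**
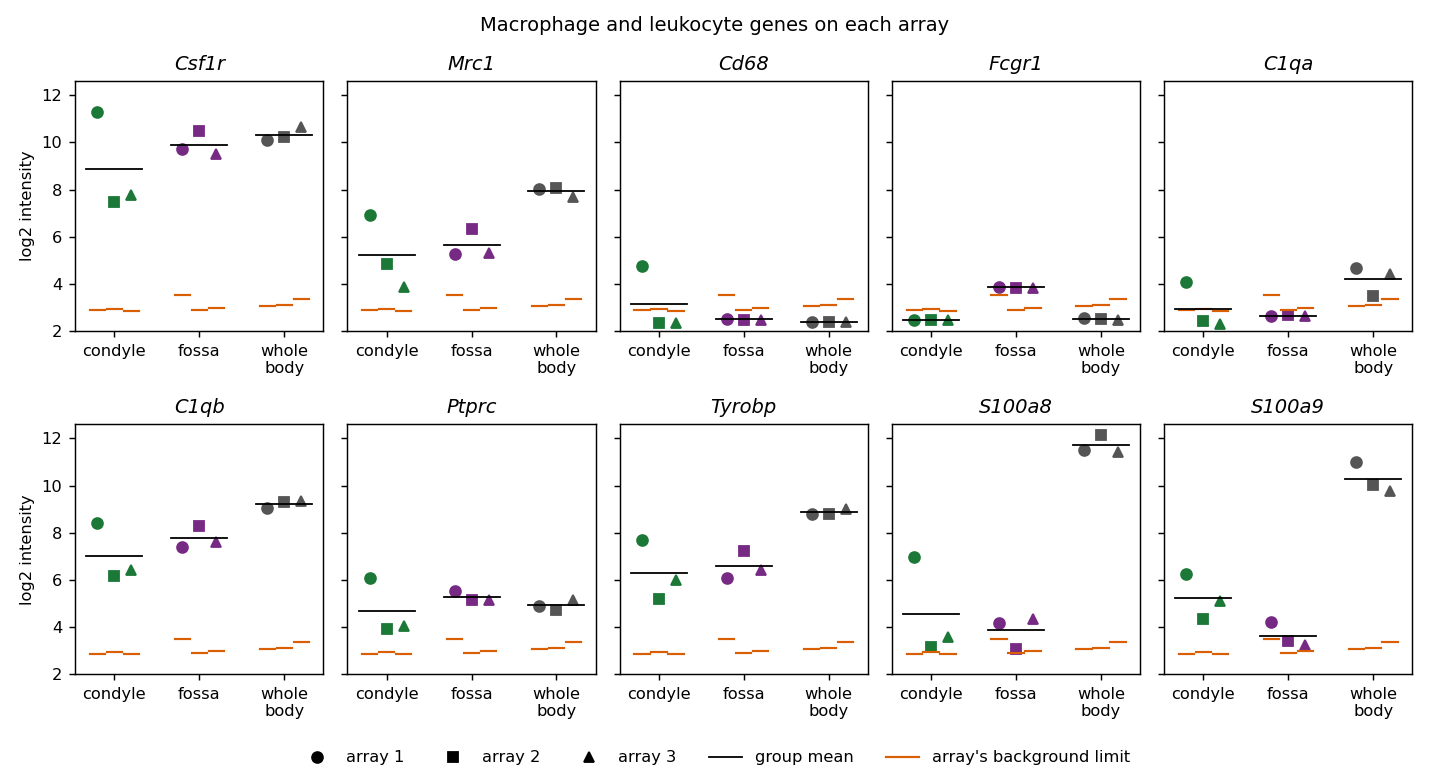
Log2 intensity (vertical axis) of the probe set that represents each gene on the 3 condyle, 3 fossa and 3 whole body arrays. Black lines are group means and short orange lines the background limit of each array; S100a8 and S100a9 are far above both joint tissues in whole body, and the condyle circle (array 1) is highest of its group for all 10 genes.

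On all arrays, 4 of the 10 members (Tyrobp, Fcgr1, S100a8 and S100a9) differed among the 3 groups in limma's moderated F test at adjusted p under 0.05, where 28.1% of all genes did. In condyle against whole body 0 members were higher and 4 lower (C1qb, Tyrobp, S100a8 and S100a9), against 9.34% of all genes higher and 3.84% lower. After quantile normalization 814 of 1626 genes called were higher there, in place of 1699 of 2398. In fossa against whole body 1 member was higher (Fcgr1) and 3 were lower (Tyrobp, S100a8 and S100a9), against 3.99% and 15.6%. There 726 of 3559 genes called were higher, in place of which stood 1471 of 3109 after quantile normalization and 1647 of 3682 after centring on the median. In condyle against fossa 0 members were higher and 1 was lower (Fcgr1), against 16.8% and 2.13%. Of the genes called 3053 of 3440 were higher in condyle, and 682 of 1176 after quantile normalization. The median log2 difference of the members was -1.85, -1.50 and -0.36 in the 3 comparisons, in that order. The first 2 comparisons share the whole body arrays. Fewer cells of a type in a sample and less RNA per cell cannot be told apart in these bulk values.

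With condyle array 1 left out, 9 members passed the F test (20.1% of all genes did), all but Cd68. That array was singled out by the values of these same members, each of which was highest of its condyle group there. Leaving it out therefore lowers the condyle mean of every member, and the added calls are no independent evidence. The count in condyle against whole body became 0 higher and 8 lower, against 5.71% and 2.48% of all genes. In fossa against whole body it became 1 higher and 6 lower, against 3.40% and 13.5%, and in condyle against fossa 0 higher and 4 lower (Csf1r, C1qb, Ptprc and Fcgr1), against 10.4% and 1.08%. The differences of fossa from whole body use no condyle array and are the same in both fits. For them only the estimate of spread, shared by the 3 groups, and the adjustment changed. The count of 4 in condyle against whole body fell to 2 when condyle array 2, condyle array 3, fossa array 3 or any 1 of the whole body arrays was left out, and S100a8 and S100a9 were then the members left.

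**Figure D2:**
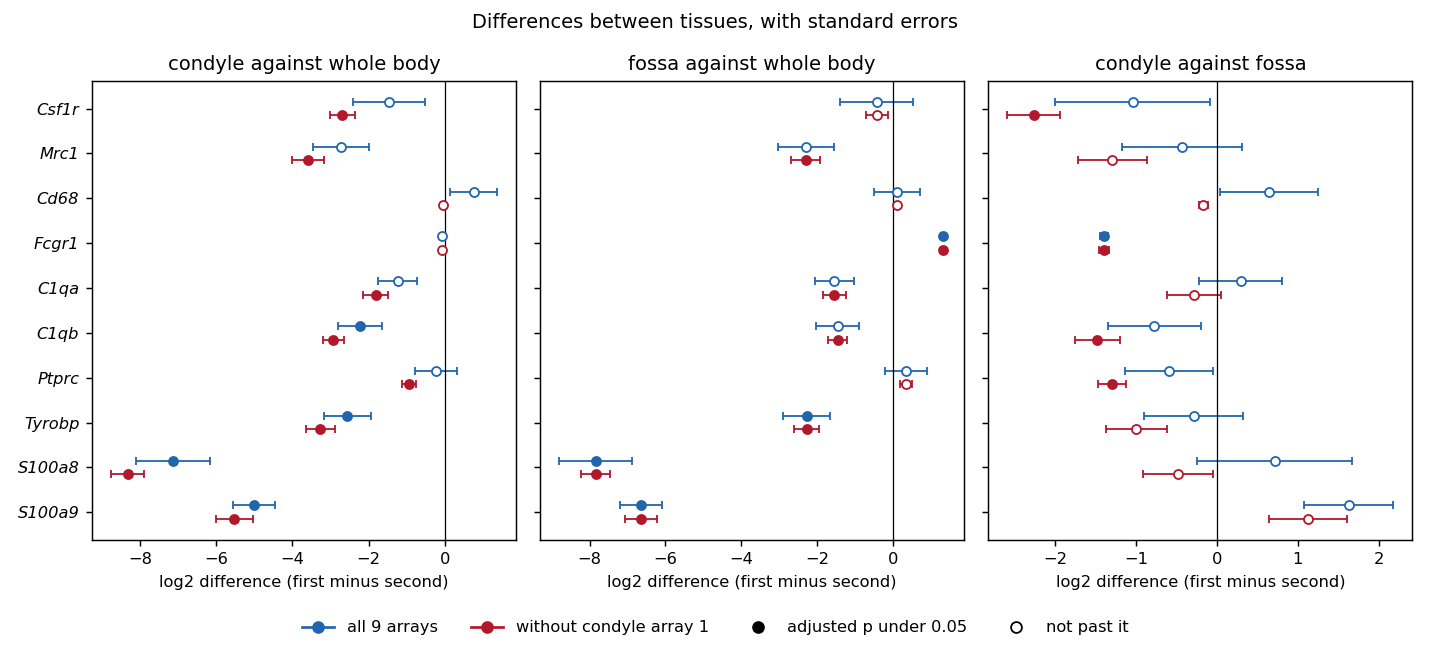
Log2 difference between group means with its standard error (horizontal axis) for the 10 genes in the 3 comparisons, from all 9 arrays (blue) and without condyle array 1 (red). Filled points have an adjusted p under 0.05; S100a8 and S100a9 are filled in both whole body comparisons, and more points are filled without condyle array 1.

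The calprotectin genes showed the largest differences among the members. S100a8 (probe set 1419394_s_at) lay at 11.53, 12.15 and 11.44 on the whole body arrays, at 6.96, 3.18 and 3.60 on condyle arrays 1, 2 and 3, and at 4.19, 3.08 and 4.33 on the fossa arrays. All 6 joint arrays were below all 3 whole body arrays, and condyle array 1 was the highest of the joint. S100a8 was 140-fold lower in condyle than in whole body (log2 difference -7.13 ± 0.96 (SE), limma adjusted p = 0.00507) and 229-fold lower in fossa (-7.84 ± 0.96, adjusted p = 0.00225). The condyle difference was -8.32 ± 0.43 without condyle array 1 (adjusted p = 0.0005), and the fossa difference then had an adjusted p = 0.000268. S100a9 (probe set 1448756_at), the partner chain of calprotectin, lay at 10.99, 10.04 and 9.75 in whole body, 6.25, 4.36 and 5.11 in condyle, and 4.22, 3.40 and 3.23 in fossa. The 3 groups did not overlap: every fossa array was below every condyle array, and every condyle array was below the whole body. The gene was 32.4-fold lower in condyle (-5.02 ± 0.55, adjusted p = 0.00253) and 99.9-fold lower in fossa (-6.64 ± 0.55, adjusted p = 0.00051) than in whole body. These differences were -5.52 (adjusted p = 0.00332) and -6.64 (adjusted p = 0.000676) without condyle array 1. The step between condyle and fossa, 1.63 ± 0.55, did not pass (adjusted p = 0.0838), and was 1.12 without condyle array 1 (adjusted p = 0.195). S100a8 differed between condyle and fossa by 0.71 ± 0.96 (adjusted p = 0.662), and by -0.48 without condyle array 1. Liver genes, whose list mean lay at 10.6 to 11.1 on the whole body arrays and at 2.55 to 2.97 on the joint arrays, were lower in the same direction; their part in the calprotectin difference was not tested, and the 18S control mean differed between the same arrays.

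Other neutrophil and granule genes were read from a list. Counts of this and the later lists against whole body stand beside the shares of all genes called. Those shares were 9.34% higher and 3.84% lower in condyle, and 3.99% and 15.6% in fossa. Of 18 measured, 0 were higher and 4 lower in condyle than in whole body, and 1 was higher and 5 lower in fossa; 7 of the 18 were at background on all arrays. Ctsg, the granule protease cathepsin G, was at least 35.7-fold lower in condyle and at least 32.8-fold lower in fossa. Mpo, the myeloperoxidase of primary granules, was at least 5.61-fold and at least 4.74-fold lower, and Camp, the cathelicidin peptide gene, at least 6.19-fold and at least 8.44-fold. Ms4a3, a membrane protein gene of granulocyte precursors, was at least 4.60-fold and at least 4.12-fold lower. Ngp, a secondary granule protein gene, was 7.73-fold lower in fossa. The 1 gene higher in fossa was Padi4, at background in both groups. The counts were 0 and 5 in condyle and 0 and 6 in fossa without condyle array 1. On condyle array 1 Ngp lay at 6.27 against 4.21 on both other condyle arrays, and Camp at 4.95 against 2.60 on both; Ctsg and Mpo did not stand out there, at 2.96 and 2.30. Of 11 measured S100 relatives, 1 was higher (S100a4) and 1 lower (S100a10) in condyle than in whole body, and neither passed without condyle array 1 (adjusted p = 0.114 for both). In fossa 0 were higher and 2 lower, S100a4 and S100a10, each 2.10-fold, and both calls held without condyle array 1 (adjusted p = 0.0233 and 0.0362). S100a4 was 4.01-fold higher in condyle than in fossa (limma adjusted p = 0.00264, and 0.0106 without condyle array 1).

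Csf1r (probe set 1419872_at), the receptor for the growth factors Csf1 and Il34, was bright in all 3 tissues. It lay at 11.30, 7.49 and 7.78 in condyle, 9.73, 10.47 and 9.49 in fossa, and 10.08, 10.22 and 10.67 in whole body. Condyle array 1 was the highest of all 9 and the other 2 condyle arrays the lowest, so the condyle group overlapped both others. The order of means was condyle (8.86 ± 2.12, SD, n = 3), fossa (9.90 ± 0.51) and whole body (10.32 ± 0.31), and no neighbours in that order passed the test. The difference from whole body was -1.47 ± 0.95 (limma adjusted p = 0.34) in condyle and -0.43 ± 0.95 (adjusted p = 0.798) in fossa; the latter was 0.13 after quantile normalization and had an adjusted p = 0.377 without condyle array 1. Without condyle array 1, Csf1r was lower in condyle than in whole body (log2 difference -2.69 ± 0.33, adjusted p = 0.00932) and than in fossa (-2.26 ± 0.33, adjusted p = 0.0133). A second Csf1r probe set, 1419873_s_at, was also highest on condyle array 1 (6.90 against 3.29 and 3.18), with 4.55 to 5.74 in fossa and 3.76 to 5.45 in whole body. The third, 1423593_a_at, stayed between 2.94 and 3.50 on all arrays, near the limit. Of 12 genes of the Csf1 receptor axis 0 were called by limma in condyle against whole body, with 4 at an unadjusted p under 0.05, and 0 without condyle array 1, with 3. Their median difference was -0.07 in condyle and -0.04 in fossa. In fossa 0 were higher and 3 lower than in whole body (Csf2, Grb2 and Il34), and 2 without condyle array 1. Grb2 was 1.70-fold lower. Csf2 and Il34 were above the limit on 0 fossa arrays and 1 whole body array each, with bounds of 1.05-fold and 1.04-fold.

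Mrc1 (probe set 1450430_at), the mannose receptor of tissue macrophages, lay at 8.03, 8.08 and 7.71 in whole body, 6.93, 4.84 and 3.86 in condyle, and 5.27, 6.35 and 5.31 in fossa. Both joint groups were below every whole body array and overlapped each other. The differences of -2.73 ± 0.74 in condyle (6.62-fold lower, limma adjusted p = 0.0535) and -2.29 ± 0.74 in fossa (4.91-fold lower, adjusted p = 0.0705) missed the threshold. Both passed without condyle array 1, at -3.59 (adjusted p = 0.00881) and -2.29 (adjusted p = 0.0125). The fossa difference itself was unchanged, with an SE of 0.38 in place of 0.74. Mrc1 passed in 5 of 18 alternative settings in condyle (adjusted p over all 18 from 0.00881 to 0.14) and in 4 of 18 in fossa (0.0125 to 0.175). In condyle these included quantile normalization (adjusted p = 0.0466), the filter on dim genes (0.0226), log2 of the value plus 16 (0.0474) and the robust prior with an intensity trend (0.0413). In fossa they included the filter (0.0402), only the 2 groups compared (0.0148) and leaving out condyle array 3 (0.0414). Of 14 other lysosome and scavenger receptor genes, 3 were higher and 0 lower in condyle than in whole body: Mrc2, a collagen receptor related to Mrc1 (4.85-fold), the lipoprotein receptor Scarb1 (3.19-fold) and the lysosomal protease Ctsz (2.04-fold). In fossa 1 was higher (Mrc2, 4.13-fold) and 2 lower (Lamp1 and Ly75). The counts were 2 and 0 in condyle and 1 and 2 in fossa without condyle array 1, where Scarb1 lost its condyle call (adjusted p = 0.0672) and Lamp1 its fossa call (0.0508), while Ctsb, another lysosomal protease, gained one in fossa. Mrc2 was thus higher in both joint tissues, where Mrc1 was at lower values than in whole body.

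Cd68 (probe set 1449164_at), a lysosomal membrane protein gene of macrophages and osteoclasts, was above background on 1 array. It read 4.76 on condyle array 1 and 2.34 and 2.33 on condyle arrays 2 and 3, 2.49 to 2.51 in fossa and 2.37 to 2.41 in whole body. It is the 1 member that was above the limit on fewer than 3 arrays, and it passed no comparison.

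Fcgr1 (probe set 1417876_at), the high-affinity receptor for immunoglobulin G, had a pattern of its own among the members. It read 3.88, 3.84 and 3.85 on the fossa arrays, all above the limit, and 2.46 to 2.47 in condyle and 2.49 to 2.57 in whole body, all under it. The fossa did not overlap either group, and its 3 arrays spanned 0.04. Fcgr1 was higher in fossa than in whole body (1.33 ± 0.05, limma adjusted p = 1.92e-05), at least 1.59-fold against the limits of the whole body arrays. It was also higher than in condyle (the condyle minus fossa difference was -1.39 ± 0.05, adjusted p = 0.000174), at least 1.95-fold against the condyle limits. With the highest limit of any array as a common floor, these differences shrank to 0.335 and -0.335, and both were still called. Both calls held without condyle array 1 (adjusted p = 0.000168 and 0.00151). The second probe set of Fcgr1, 1436625_at, did not share the pattern: it was under the limit in condyle and fossa, read 3.74, 2.95 and 2.42 in whole body, and passed no comparison. With the 2 probe sets averaged the fossa and whole body difference did not pass (adjusted p = 0.103). Among 4215 genes at background on all 9 arrays, where calls rest on small spreads, 7.62% were called in fossa against whole body, 6.83% in condyle against fossa and 0.190% in condyle against whole body. Of 14 Fc receptor and Tyrobp partner genes, 0 were higher and 1 lower in condyle than in whole body (Fcgr3, a low-affinity immunoglobulin receptor, 3.41-fold lower). In fossa 0 were higher and 2 lower (Syk and Fcer1g), beside 3.99% and 15.6% of all genes. The counts against whole body were the same without condyle array 1.

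The complement genes C1qa and C1qb encode chains of C1q, which tags dying cells and immune complexes, and are expressed mainly by macrophages. C1qb (probe set 1437726_x_at) lay at 9.04, 9.31 and 9.37 in whole body, 8.42, 6.17 and 6.44 in condyle, and 7.41, 8.31 and 7.63 in fossa. Both joint tissues were below every whole body array, and condyle array 1 was above every fossa array. C1qb was 4.69-fold lower in condyle (-2.23 ± 0.58, limma adjusted p = 0.0465), a call made in 5 of 18 alternative settings. It was lost without condyle array 2 or 3, or without any 1 fossa or whole body array, with adjusted p from 0.0587 to 0.136. Its fossa difference, -1.46 ± 0.58, did not pass (adjusted p = 0.126). Without condyle array 1 C1qb was lower in condyle than in whole body (-2.93, limma adjusted p = 0.00437) and than in fossa (-1.48, adjusted p = 0.026). Its fossa difference was then still -1.46, with an SE of 0.25 in place of 0.58, and passed (adjusted p = 0.0134). A second C1qb probe set, 1434366_x_at, read 8.25 to 8.79 in whole body, 7.74, 6.06 and 6.58 in condyle and 7.04 to 8.24 in fossa. Its condyle difference was -1.75 ± 0.48 (adjusted p = 0.0857 over all probe sets, where the first C1qb probe set had 0.0753). The third, 1417063_at, was near or under the limit on all arrays.

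C1qa (probe set 1417381_at) read 4.68, 3.49 and 4.43 in whole body, 4.10, 2.44 and 2.32 in condyle, and 2.64, 2.70 and 2.63 in fossa. It was above the limit on 3 whole body arrays, on condyle array 1 alone of its group, and on 0 fossa arrays. The differences, -1.24 ± 0.51 in condyle (limma adjusted p = 0.167) and -1.54 ± 0.51 in fossa (adjusted p = 0.0785), passed without condyle array 1, at adjusted p = 0.0283 and 0.0199. The fossa difference itself was unchanged, with an SE of 0.30 in place of 0.51. C1qa and C1qb are neighbours on chromosome 4, with C1qc between them. Of 12 C1q partner and complement genes, 1 was higher in condyle than in whole body, Calr, which encodes calreticulin, a C1q-binding protein (3.54-fold), and 0 were lower. The Calr call was lost without condyle array 1 (adjusted p = 0.0555), where 0 were higher and 1 lower. In fossa 0 were higher and 2 lower (Cfb and Cr1l), beside 3.99% and 15.6% of all genes, with the same calls without condyle array 1.

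Ptprc (probe set 1422124_a_at) encodes CD45, a phosphatase on all nucleated blood cells. It lay at 6.10, 3.93 and 4.06 in condyle, 5.55, 5.16 and 5.15 in fossa, and 4.92, 4.74 and 5.14 in whole body. Every fossa array was above every whole body array, by 0.35 ± 0.54 in the mean (limma adjusted p = 0.698, and 0.182 without condyle array 1), and condyle arrays 2 and 3 were the lowest of the 9. With condyle array 1 left out, Ptprc was lower in condyle than in whole body (-0.94 ± 0.17, adjusted p = 0.0283) and than in fossa (-1.29 ± 0.17, adjusted p = 0.011). The other Ptprc probe set, 1440165_at, was under the limit on all arrays.

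Tyrobp (probe set 1450792_at) encodes DAP12, the signalling adaptor of many myeloid receptors. It lay at 8.79, 8.79 and 9.02 in whole body, 7.71, 5.20 and 5.99 in condyle, and 6.11, 7.23 and 6.44 in fossa. Both joint groups were below every whole body array and overlapped each other. Tyrobp was 5.92-fold lower in condyle (-2.57 ± 0.61, limma adjusted p = 0.0363) and 4.84-fold lower in fossa (-2.28 ± 0.61, adjusted p = 0.0413). The condyle call was lost without condyle array 2 or 3, fossa array 3 or any 1 whole body array (adjusted p from 0.0612 to 0.108). The fossa call was lost without condyle array 3 or any 1 fossa or whole body array (adjusted p from 0.0523 to 0.112). The adjusted p-values without condyle array 1 were 0.00809 in condyle and 0.00862 in fossa. Between condyle and fossa Tyrobp differed by -0.29 ± 0.61 (adjusted p = 0.793).

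Counted over their own arrays, 7 members were above the limit on all 3 condyle arrays, 8 on all 3 fossa arrays and 8 on all 3 whole body arrays. All 3 condyle arrays lay below all 3 whole body arrays for 6 members (C1qb, Mrc1, Tyrobp, S100a8, S100a9 and, at background in both groups, Fcgr1), as for 33.4% of all genes. No member had all condyle arrays above all whole body arrays, as 19.8% of all genes did. Fossa lay wholly below whole body for 6 (C1qa in place of Fcgr1), as for 31.1%, and wholly above for 3, as for 11.1%. Those 3 were Ptprc, Fcgr1 and Cd68, the last at background. Condyle lay wholly above fossa for 1 member (S100a9), as for 33.9% of all genes, and wholly below for 1 (Fcgr1), as for 15.8%. Of the 16 probe sets 4 were called in any comparison, near the share of all probe sets, 24.8%. Those 4 were the probe sets of Tyrobp, S100a8 and S100a9 and the first of Fcgr1. Without condyle array 1, which was singled out by these same members, the count was 11. The share of all probe sets was not computed there, so that count is not read as a result.

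Several osteoclast markers were high on the same condyle array as the members. The mean of 10 osteoclast genes was 5.07 on condyle array 1, 3.67 and 3.44 on condyle arrays 2 and 3, 3.30 to 3.60 in fossa and 3.25 to 3.38 in whole body; 2 of the 10 were at background on all arrays. Ctsk, the collagen-degrading cathepsin K of osteoclasts, lay at 10.77 on condyle array 1 against 7.32 and 6.70 on its partners, and Acp5, the tartrate-resistant phosphatase, at 8.71 against 6.18 and 5.30. Ocstamp, a fusion protein gene of osteoclasts, read 4.39 against 2.30 on both, Atp6v0d2, a proton pump subunit gene, 5.29 against 2.52 and 2.53, and Itgb3, an integrin chain gene, 5.21 against 2.44 and 2.52. These 3 genes were above background on 1 condyle array and on 0 whole body arrays; of the fossa arrays, array 2 was also above it for Atp6v0d2 (3.85) and Itgb3 (3.49). Mmp9, a matrix protease gene of both neutrophils and osteoclasts and listed with the former, lay at 10.13 against 4.11 and 4.43. Dcstamp, Calcr and Oscar did not stand out on condyle array 1, by -0.02 to 0.02 from its partners. In the tests 1 of the 10 was higher and 1 lower in condyle than in whole body (Nfatc1 and Tnfrsf11a), and 0 were higher and 1 lower in fossa (Calcr). The counts were 1 and 0 in condyle and 0 and 1 in fossa without condyle array 1. The part of such cells in the levels of the members on condyle array 1 was not tested.

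**Figure D3:**
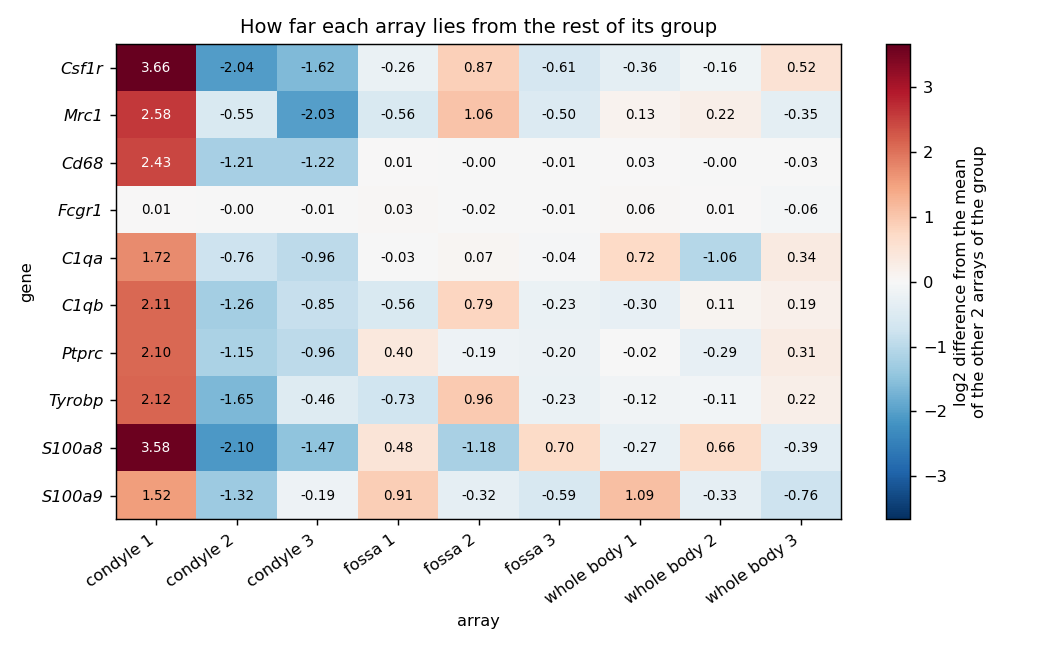
Log2 difference of each array from the mean of the other 2 arrays of its group (colour and printed value) for the 10 genes. The column of condyle array 1 is positive for all 10 genes, up to 3.66 for Csf1r, and 0.01 for Fcgr1.

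Some other leukocyte genes were also higher on condyle array 1 than on its partners. The mean of 23 pan-leukocyte genes was 3.89 there, 3.32 and 3.45 on its partners, 3.34 to 3.49 in fossa and 4.03 to 4.22 in whole body, with 8 of 23 at background throughout. Laptm5, a lysosomal membrane gene of blood cells, lay at 10.45 against 7.11 and 8.19, and Lcp1, an actin-bundling protein gene, at 7.29 against 4.08 and 5.13. Plek, a substrate of protein kinase C in platelets and leukocytes, lay at 5.73 against 3.03 and 3.36. Other genes of this list, also above the limit on all 3 condyle arrays, differed far less. On condyle array 1 Cyba lay 0.003, Ptpn6 0.18 and Coro1a 0.41 above the mean of condyle arrays 2 and 3. The mean of 24 tissue macrophage genes was 3.87 there, 3.36 and 3.41 on its partners, 3.61 to 3.76 in fossa and 4.30 to 4.50 in whole body, with 5 of 24 at background throughout. Lyz2, the lysozyme of myeloid cells, read 5.61 against 2.51 on both partners, and Ctss, cathepsin S of antigen-presenting cells, 8.49 against 5.20 and 6.93. Adgre1, which encodes the macrophage antigen F4/80, did not stand out, at 5.08 against 4.88 and 4.87. The endothelial list mean was 3.63 against 2.97 and 3.29, the lymphocyte list 2.79 against 2.79 and 2.71, and the red cell list 4.47 against 4.33 and 4.34.

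**Figure D4:**
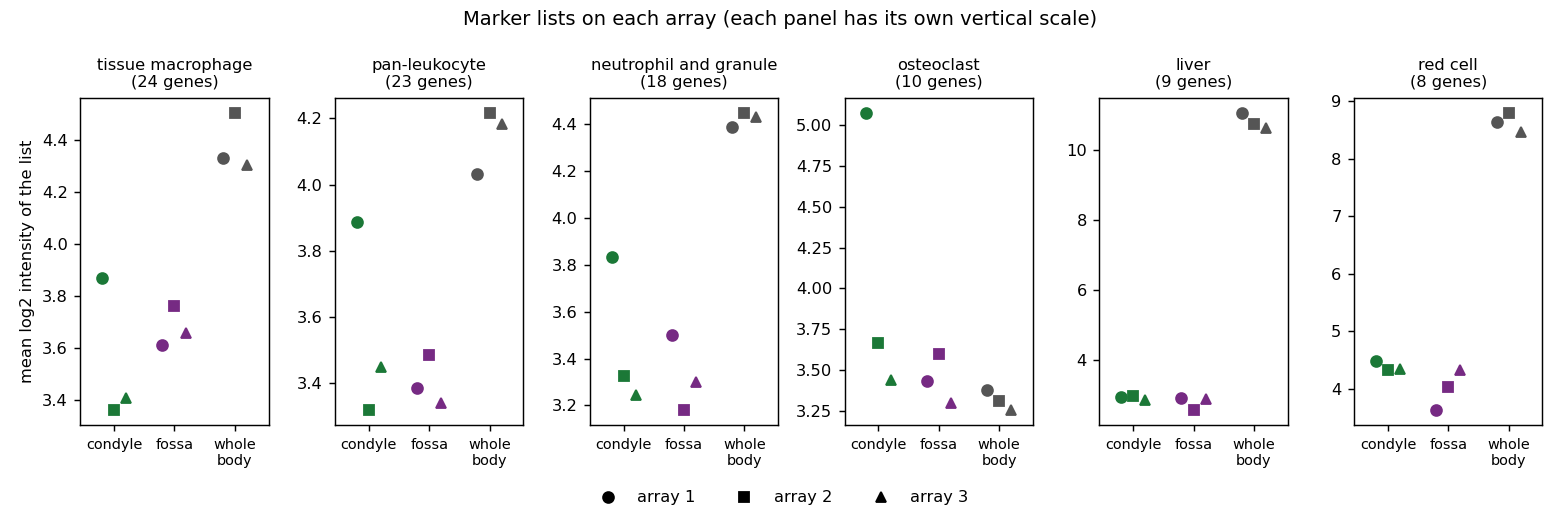
Mean log2 intensity (vertical axis, its own scale in each panel) of 6 gene lists on each array. The osteoclast mean is 5.07 on condyle array 1 and at most 3.67 on the other 8 arrays, while the macrophage, pan-leukocyte, neutrophil, liver and red cell lists are highest in whole body.

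In the tests, 5 of 24 tissue macrophage genes were lower and 0 higher in condyle than in whole body. They were Lyz2 (at least 11.4-fold), Ctss (8.79-fold), Lyve1, the hyaluronan receptor of some macrophages and of lymphatic vessels (6.17-fold), Marco, a scavenger receptor (at least 2.65-fold), and Mpeg1, the pore-forming perforin 2 (at least 2.02-fold). Whole body array 3 was itself under its limit for Marco (3.05) and Mpeg1 (3.14). The count was 3 without condyle array 1: Lyz2 and Ctss kept the call, Lyve1 (adjusted p = 0.0503), Marco (0.0915) and Mpeg1 (0.0632) lost it, and F13a1, a clotting factor chain of macrophages, gained it. In fossa 3 were lower and 0 higher, beside 15.6% and 3.99% of all genes: Lyve1 (10.7-fold), Lyz2 (10.7-fold) and Marco (at least 2.24-fold). The count was 4 without condyle array 1, where Marco lost the call (adjusted p = 0.0531) and Ctss and F13a1 gained it. In condyle against fossa 0 of 24 passed in limma in either direction, with 1 at an unadjusted p under 0.05. Without condyle array 1 also 0 passed, with 5 at an unadjusted p under 0.05. Of all genes 16.8% were higher and 2.13% lower there, and 10.4% and 1.08% without condyle array 1. The median difference of the list was -0.30, -0.26 and -0.11 in the 3 comparisons, beside -0.03, -0.11 and 0.21 over all genes. Of 23 pan-leukocyte genes, 0 were higher and 2 lower in condyle than in whole body: Cd53, a leukocyte tetraspanin (at least 5.50-fold), and Nckap1l, a haematopoietic actin regulator (3.40-fold). Both kept the call without condyle array 1 and Laptm5 joined them. In fossa 0 were higher and 5 lower, led by Cd53 (at least 5.06-fold) and with Cyba, Arhgdib, Ptpn6 and Dock2. There were 6 lower without condyle array 1, where Ptpn6 lost the call (adjusted p = 0.0649) and Lcp1 and Nckap1l gained it. In condyle against fossa 2 were higher (Cyba and Arhgdib) and 0 lower, beside 16.8% and 2.13% of all genes. Without condyle array 1 the counts were 1 and 0, beside 10.4% and 1.08%. Arhgdib was, like Fcgr1, nearly even within each group, at 3.65 to 3.72 in condyle, 2.42 to 2.46 in fossa and 3.67 to 3.75 in whole body. It was above the limit on 0 fossa arrays. Spi1, which encodes PU.1, was above the limit on 0 condyle, 1 fossa and 0 whole body arrays.

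The genes with the most similar pattern were found for 3 members by the root mean square (RMS) difference of log2 levels over the 9 arrays, after each gene's own mean was subtracted, among 11983 genes above background on at least 3 arrays. For Csf1r, whose own RMS about its mean was 1.21, they were Tmem255a (0.43), the cholesterol exporter Abca1 (0.50), Laptm5 (0.56), the fibroblast protease Fap (0.62) and C1qb (0.62). For Tyrobp, with 1.33, they were the tendon gene Tnmd (0.33), the blood cell adaptor Fermt3 (0.35), C1qb (0.37), Klhl4 (0.40) and Fam162b (0.40), and Mrc1 was 8th. For S100a8, with 3.69, they were the liver genes Apoa2 (1.06), Cps1 (1.09), Rgn (1.11), Apoa1 (1.12) and Bhmt (1.12), and S100a9 was 6th at 1.16. The joint arrays of the 5 liver genes read at most 3.67, without the rise of S100a8 on condyle array 1.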

How the data were processed

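RNA of 3 condyle, 3 fossa and 3 whole body samples was labelled with biotin and hybridised to Affymetrix mouse arrays, per the labels. The authors deposited 1 column of intensities per array on a linear scale, as the values show (3.25 to 67158.9). The submitters' processing notes name limma without a role; background correction, normalization and probe summary are not given in the sources used here, and the deposited normalization was kept.

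Intensities were converted to log2. Probe sets were named from the platform annotation; 34945 of 45037 had 1 symbol, 932 several and 9160 none. Each gene was represented by its probe set with the highest mean. All genes were tested in 1 fit of 3 groups with limma 3.58.1 (lmFit, eBayes) in R 4.3.3, with Benjamini-Hochberg adjustment over 18193 genes, or 45037 probe sets, and a threshold of 0.05. The script was tested on simulated data. Where the lower group had fewer than 3 arrays above the limit, an "at least" fold was computed. Each array of the lower group was then taken at its limit or its own value, whichever was higher. The higher group kept its own values, also on an array under the limit. Where neither group exceeded background, folds were left out.

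The members, gene lists and tests were chosen with earlier results of these data known. Named are all members, the called genes of the companion lists with the largest differences (up to 6 per list and comparison), up to 3 per list of another cell type, and 5 genes most like Csf1r, Tyrobp and S100a8. Genes described for their levels on condyle array 1 (Ctsk, Acp5, Ocstamp, Atp6v0d2, Itgb3, Dcstamp, Calcr, Oscar, Mmp9, Laptm5, Lcp1, Plek, Cyba, Coro1a, Ptpn6, Adgre1), Spi1, F13a1 and Ctsb were chosen after their values were seen. Other settings tried were quantile normalization, median centring, averaged probe sets, a common floor, a filter on dim genes, log2 of the value plus 16, a replicate block, a robust prior with an intensity trend, only the 2 groups compared, and each array left out.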

Additional observations from a re-analysis of the deposited data

Results flagged for a closer look

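Fcgr1 differed between the 2 joint tissues: the condyle minus fossa difference was -1.39 on the log2 scale. Every condyle array lay on one side of the whole body mean and every fossa array on the other, with group means 1.39 apart. Against whole body the condyle difference was -0.065 and did not pass (limma adjusted p = 0.403), with both groups at background. A move of condyle away from whole body was thus not shown. The condyle and whole body levels were under the background limit, and the second Fcgr1 probe set did not share the pattern. Among all genes, 1561 were as even as this, with the 3 arrays of each group spanning under 0.1, and 95.8% of them were at background on all 9 arrays. Of the 1561, fossa lay over 1 unit above both other groups in 1, which is Fcgr1 itself. It lay over 1 unit below both in 4. This count was made after the values of Fcgr1 were seen.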

How the results depend on the processing

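S100a8 and S100a9 were called lower than whole body in both joint tissues under all 18 alternatives, and Fcgr1 lower in condyle than in fossa under all 18. Tyrobp was called under 9 (condyle) and 7 (fossa) of 18. Of 537 values of a member under an alternative, 470 kept direction and side of the threshold, 34 lost the call, 21 gained one and 12 changed sign, none of these a call. The count in condyle against whole body (4) was 2 with a common floor, 2 with the replicate block and 2 with only the 2 groups compared, and 2 to 8 with 1 array left out. Over all genes 1805, 1691 and 2230 were called in these settings, in place of 2398, and 1470 to 2591 with 1 array left out. In fossa against whole body (4) the members' count was 7 with only the 2 groups compared and 3 to 7 with 1 array left out. Over all genes 2791 were called with only the 2 groups compared, in place of 3559, and 2343 to 3352 with 1 array left out. In condyle against fossa (1) the members' count was 2 with the replicate block, where S100a9 joined, and 1 to 4 with 1 array left out. Over all genes 2537 were called with the replicate block, in place of 3440, and 2086 to 3515 with 1 array left out. The F test count (4) was 3 to 9 and that of probe sets (4) 3 to 11 with 1 array left out. Both were highest without condyle array 1, and shares of all probe sets were computed for all arrays only. Sign changes were Fcgr1 in condyle against whole body (0.005 after quantile normalization, 0.051 after median centring) and Csf1r in fossa against whole body (0.13 after quantile normalization). Without condyle array 1 they were Cd68 (-0.058 against whole body, -0.17 against fossa), C1qa (-0.28) and S100a8 (-0.48), both against fossa. Where these changed sign, the range with 1 array left out was -0.058 to 1.16 for Cd68 and -0.94 to 0.14 for Ptprc in condyle against whole body. In condyle against fossa it was -0.28 to 0.61 for C1qa, -0.17 to 1.05 for Cd68, -1.29 to 0.24 for Mrc1, -0.995 to 0.26 for Tyrobp and -0.48 to 1.41 for S100a8. Leaving out condyle array 2 or 3 turned Ptprc against whole body (0.14 and 0.079), condyle array 2 or fossa array 2 turned Tyrobp (0.26 and 0.030), and condyle array 3 turned Mrc1. The cause of the changed calls was not tested. Same-numbered arrays did not deviate together (condyle and fossa: -0.33, -0.44 and 0.15 for numbers 1, 2 and 3). Deviations within groups of 3 arrays cannot settle whether equal numbers share an embryo, which the labels do not say. The filter on dim genes left Cd68 untested. List counts without condyle array 1 were added after the data were seen. The number of arrays and levels near background limit the precision for C1qa, Cd68 and Fcgr1.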

Other observations

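Of 6 megakaryocyte and platelet genes, 1 was higher and 2 lower in condyle than in whole body, and 1 was higher and 1 lower in fossa (limma). Pf4, platelet factor 4, was 11.6-fold lower in condyle, and Ppbp, a platelet chemokine gene, was at least 6.26-fold lower in condyle and at least 5.92-fold lower in fossa. These calls held without condyle array 1 (adjusted p = 0.0047, 0.0375 and 0.0127). Gp1bb, a chain of the platelet von Willebrand receptor, went the other way, 2.48-fold higher in condyle and 2.43-fold higher in fossa (adjusted p = 0.0438 and 0.0357), and neither call held without condyle array 1 (0.11 and 0.06). Of 9 mast cell genes, 1 was lower in condyle than in both other tissues, Hdc, the histamine-forming enzyme (2.16-fold against whole body and 1.88-fold against fossa). In fossa against whole body 0 were called, with 3 at an unadjusted p under 0.05 in limma. Neither Hdc call held without condyle array 1 (adjusted p = 0.0879 and 0.12). Of 14 lymphocyte genes 9 were at background on all arrays, and 0 were called in condyle against whole body (3 at an unadjusted p under 0.05 in limma) and 1, lower, in fossa, a call lost without condyle array 1. Nfatc1, the transcription factor of osteoclast formation, which is also expressed in other cells, was at least 3.84-fold higher in condyle than in whole body and 3.77-fold higher than in fossa, and both calls held without condyle array 1 (adjusted p = 0.0241 and 0.0304). Among the other osteoclast genes, those called lower than whole body were Tnfrsf11a, the receptor RANK, in condyle (-0.41, limma adjusted p = 0.0335, and 0.0727 without condyle array 1) and Calcr, the calcitonin receptor, in fossa (-0.80, adjusted p = 0.000522, and 0.00199 without it). Tnfrsf11a was above the limit on 0 condyle arrays and Calcr on 0 fossa arrays. Against the limits these were falls of at least 1.21-fold and at least 1.09-fold.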
